A study of Mus musculus with 18 samples.

Results

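Kinesins are motor proteins that use ATP to walk along microtubules, and most of them carry cargo toward the plus end, which in an axon points to the synapse. Conventional kinesin, or kinesin-1, is built from a pair of heavy chains, encoded by Kif5a, Kif5b or Kif5c, and a pair of light chains of the Klc family that help to bind cargo. Kif5b is made in most cell types, whereas Kif5a and Kif5c are mainly neuronal. Other families transport synaptic vesicle precursors, regulate microtubule growth, serve cilia or act in the spindle of dividing cells. The family was taken by name, as every gene called Kif or Klc followed by a number and not marked as a pseudogene, which gave 43 of the 55487 genes in the deposited count table. Of these, 42 are protein-coding members and the remaining name, Kif16bos, is an antisense RNA that is no motor. Kif5b was selected on its level in APP/PS1/FTnKO against APP/PS1 mice, so its genotype comparisons are given as descriptions without a p-value.

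Frontal cortex was collected at 9 to 10 months from 6 WT, 6 APP/PS1 and 6 APP/PS1/FTnKO mice, with 3 females and 3 males in each genotype. APP/PS1 mice are double transgenic mice of line 85, and APP/PS1/FTnKO mice carry in addition a Cre recombinase driven by the CamKIIα promoter, which removes the floxed β-subunit of farnesyltransferase (gene Fntb) from forebrain neurons only. By the study's methods all 3 genotypes are littermates homozygous for the floxed allele, and the WT and APP/PS1 mice lack Cre, while the record of the data names C57BL/6J for WT mice. Each library is a mixture of all cortical cells, so that fewer cells of a type and less RNA per cell cannot be told apart.

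Total counts ranged from 15925432 to 21030935 over 17 mice and their RNA integrity numbers (RIN) from 7.6 to 8.8. WT mouse 19622 was set apart: its summed normalised counts (CPM, counts per library size after TMM scaling) of 7 cerebellar markers were 2030, against 39.97 to 70.4 in the other 17 mice. Among its neuronal markers Camk2a was 130 CPM against 2300 to 4370, and Slc17a7, Syt1 and Gad2 also lay below their ranges in those mice. Snap25 and Gad1 lay within theirs, and Rbfox3, at 301 against 236 to 283, lay above. Fntb was 7.84 to 14.7 CPM in APP/PS1/FTnKO mice, 14.2 to 32.1 in APP/PS1 and 14.1 to 32.2 in the 5 other WT mice, so that the knockout range met the others between 14.1 and 14.7 CPM. Summed neuronal markers (7 genes) were 6902 to 8828 CPM in APP/PS1/FTnKO, 8095 to 10770 in APP/PS1 and 8234 to 11010 in WT mice.

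Of the 43 members, 37 passed the filter on low counts in the 17 mice. Kif12, Kif16bos, Kif18b, Kif28 and Kif2c did not, and Kif2b had 0 counts in every mouse. The filter asks for about 0.558 CPM in a number of mice set by the smallest group. Kif15 reached that level in 6 of 6 APP/PS1/FTnKO but in 3 of 6 APP/PS1 and 2 of 5 WT mice, so that it passed mainly through the group where it was highest. Kif14 reached it in 4, 3 and 2 mice of those groups.

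On the scale of CPM per kilobase of exon, which allows genes to be compared, the heavy chains held 52.8% of the family's summed level in the 17 mice. Kif5a stood first with a mean of 539.9 CPM per kilobase (range 408.4 to 723.4), or 40.3% of the family. Kif1a, which carries synaptic vesicle precursors along axons, followed with 167.2, the light chain Klc1 with 143.7 and Kif5c with 126.4. In the 5 WT mice the ranges of these 4 genes did not overlap with those of their neighbours in the order. Kif5b was seventh with 41.2 CPM per kilobase, and its WT range overlapped with that of Kif21a (37.8), as did those of Kif21a and Kif3c (35.4), and of Kif3c and Kif3a (35.4). The APP/PS1/FTnKO mice, with more Kif5b, raise its mean over the 17 mice, and in the 5 WT mice alone it was 34.8 CPM per kilobase, below Kif21a (36.0), Kif3a (37.6) and Kif3c (37.97). Kif5b was the least abundant heavy chain in all 17 mice.

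The other groups were lower. Transport kinesins outside kinesin-1 held 25.9% of the summed level, led by Kif1a, Kif1b (52.4 CPM per kilobase, axonal transport) and Kif3c (a neuronal kinesin-2). Light chains held 15.8%, with Klc2 at 54.8 and Klc4 at 11.8 CPM per kilobase behind Klc1. The microtubule regulators Kif21a, Kif21b (13.9) and Kif2a (12.5) held 4.79%. Cilia and Hedgehog kinesins held 0.419%, with Kif9 at 1.82, Kif27 at 1.43 and Kif7 at 1.02 CPM per kilobase. Kif26a and Kif26b, of the kinesin-11 family, were at 1.95 and 1.31. The 12 mitotic kinesins summed to 1.64 CPM per kilobase, 0.122% of the family, and their highest members were Kif23 (0.278), Kif22 (0.272) and Kif4 (0.230). The levels of Kif3c, Kif2a and Kif4 are uncertain unless strand was used in counting, since 38.2%, 16.8% and 13.3% of their distinct 100-base stretches occur in genes on the opposite strand. From Kif1c downward, neighbours in the order overlapped over the WT mice except Kif17 with Kif13b and Kif13a with Kif16b.

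**Figure D1:**
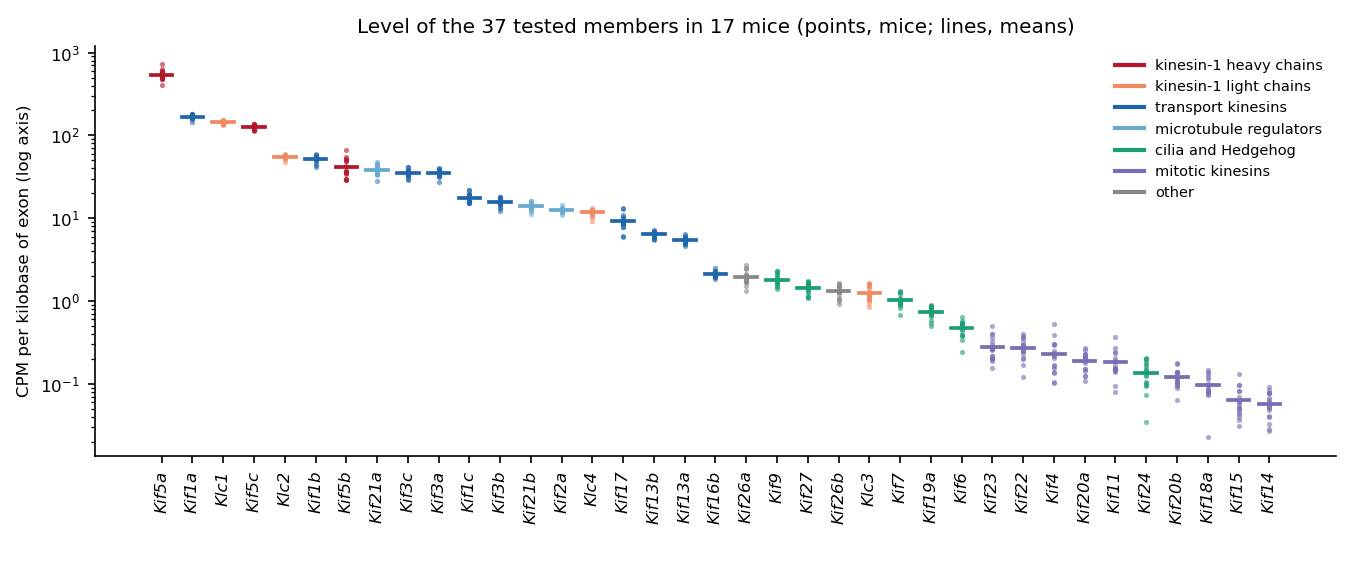
Level of the 37 tested kinesin members in 17 mice, as CPM per kilobase of exon on a log axis; each point is a mouse, each line a mean, and colour marks the role of the gene. Kif5a lies at 539.9 and the means of the mitotic kinesins lie below 0.3.

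Kif5b (ENSMUSG00000006740; GRCm38, chromosome 18, 6201002 to 6242174, minus strand) was higher in APP/PS1/FTnKO mice than in both other genotypes. It was 389.7, 396.6, 409.7, 417.2, 435.5 and 533.2 CPM in the APP/PS1/FTnKO mice. In the APP/PS1 mice it was 227.9 at the lowest, 283.2 at the median and 293.6 at the highest. The 5 WT mice had 232.7, 237.4, 279.5, 295.7 and 344.9 CPM. Every APP/PS1/FTnKO mouse lay above every APP/PS1 mouse and these 5 WT mice, and the WT and APP/PS1 mice overlapped almost throughout. The means were 430.3 ± 52.9 (SD, n = 6), 269.8 ± 29.1 (n = 6) and 278.0 ± 46.1 (n = 5), so that APP/PS1/FTnKO mice exceeded APP/PS1 mice 1.6-fold (log2 fold change 0.68, SE 0.10) and WT mice 1.54-fold (0.63, SE 0.11). Between APP/PS1 and WT mice the log2 fold change was -0.05 (SE 0.11). The highest mouse, 16974, also had the lowest RIN of the 17 (7.6). Its Fntb, at 14.66 CPM, was the highest of the APP/PS1/FTnKO mice and above that of 3 APP/PS1 and 1 WT mouse, while the other APP/PS1/FTnKO mice lay below all of them. Without mouse 16974 the log2 fold changes were 0.59 against APP/PS1 and 0.54 against WT.

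By sex, female APP/PS1/FTnKO mice had 389.7 to 435.5 CPM of Kif5b (n = 3) and female APP/PS1 mice 275.8 to 291.9 (n = 3), while males had 396.6 to 533.2 (n = 3) and 227.9 to 293.6 (n = 3). With the sexes compared across genotypes, the log2 fold change of Kif5b between females and males was 0.05 (SE 0.08, adjusted p = 0.963 by edgeR's quasi-likelihood test).

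In both comparisons of APP/PS1/FTnKO mice the paralogs had smaller fitted differences than Kif5b. Kif5a (ENSMUSG00000074657; chromosome 10, 127225696 to 127263348, minus strand), whose product is the major heavy chain of neurons, was 3682 to 5056 CPM in APP/PS1/FTnKO mice (median 4091), 2855 to 3725 in APP/PS1 (median 3390) and 3418, 3449, 3479, 4046 and 4140 in WT mice. The groups overlapped, with a single APP/PS1 mouse, 19723, above the lowest APP/PS1/FTnKO mouse. The log2 fold change of Kif5a in APP/PS1/FTnKO against APP/PS1 mice was 0.31 (SE 0.08), which did not pass the threshold of 0.05 by edgeR. It passed by DESeq2, and by edgeR without a filter on low counts or with RIN as a covariate. It was 0.19 against WT (SE 0.09, adjusted p = 0.227) and -0.13 for APP/PS1 against WT (SE 0.09, adjusted p = 0.549).

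Kif5c (ENSMUSG00000026764; chromosome 2, 49619298 to 49774778, plus strand), a neuronal heavy chain, had 866.6 to 990.7 CPM in APP/PS1/FTnKO mice (median 945.6), 807.9 to 928.8 in APP/PS1 (median 851.2) and 838.9, 881.5, 916.2, 939.7 and 986.5 in WT mice. All 3 groups overlapped. The log2 fold changes were 0.13 (SE 0.05), 0.04 against WT (SE 0.06, adjusted p = 0.683) and -0.09 for APP/PS1 against WT (SE 0.06, adjusted p = 0.482). None passed the threshold, and the 95% interval for APP/PS1/FTnKO against APP/PS1 was 0.03 to 0.24 on the log2 scale.

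**Figure D2:**
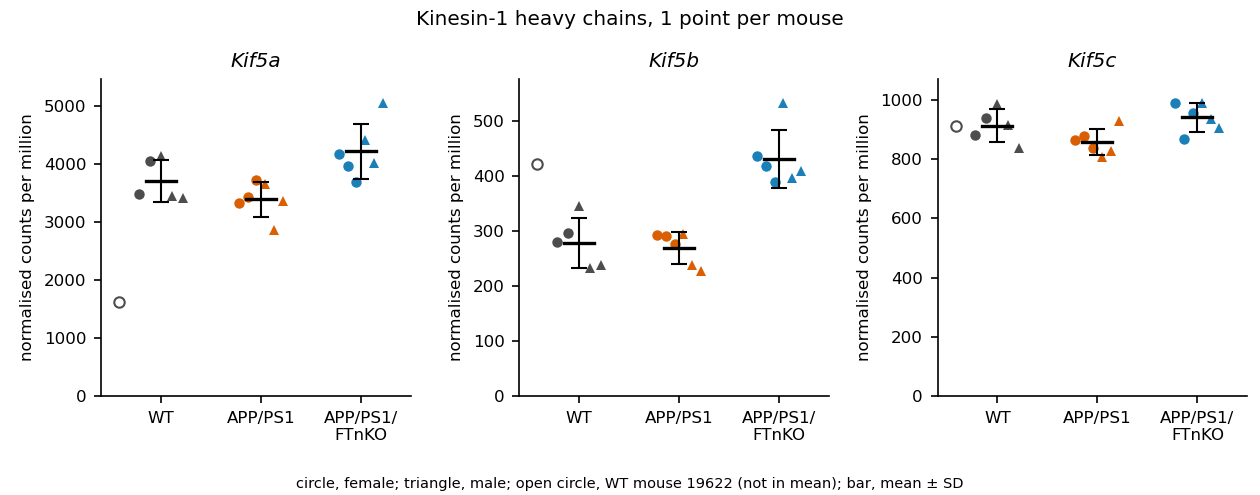
Normalised CPM of the heavy chains Kif5a, Kif5b and Kif5c in each mouse by genotype, with the mean and SD of 5 WT, 6 APP/PS1 and 6 APP/PS1/FTnKO mice; WT mouse 19622 is an open circle outside the means. For Kif5b all APP/PS1/FTnKO mice, at 389.7 or more, lie above the other 11 mice in the means, whose highest value is 344.9, while mouse 19622 lies at 422.2.

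The make-up of the heavy chain pool is described by the share of Kif5b in the summed CPM per kilobase of the 3 genes. It was 5.69% to 7.98% in APP/PS1/FTnKO mice (mean 6.85 ± 0.74, SD, n = 6), 4.47% to 5.78% in APP/PS1 (5.30 ± 0.47, n = 6) and 4.48%, 4.68%, 4.96%, 5.34% and 5.59% in WT mice (5.01 ± 0.46, n = 5). Mouse 19720, with the lowest share in the APP/PS1/FTnKO group, had the highest Kif5a of all mice and overlapped with the APP/PS1 range. The summed level of the 3 genes was 709.4 to 901.6 CPM per kilobase in APP/PS1/FTnKO, 554.2 to 684.9 in APP/PS1 and 636.2 to 773.6 in WT mice. Kif5a accounted for most of that sum in every mouse. The share is a description, since Kif5b was selected on one of these comparisons.

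Reads of the heavy chains can be told apart. None of the distinct 100-base stretches in the transcripts of Kif5a and Kif5c occurred in transcripts of another gene, and 1.57% of those of Kif5b did, all in antisense RNAs over its exons. The count table held 2 counts in all 18 mice for Gm17036, an antisense gene there, and did not hold the other such gene, AC113003.1. Of the 13 tested genes within 1 Mb of Kif5b 0 passed the threshold by edgeR in any genotype comparison, with 0 at an unadjusted p under 0.05 for APP/PS1/FTnKO against APP/PS1 (11.5% of all genes), 3 for APP/PS1 against WT (14%) and 2 for APP/PS1/FTnKO against WT (22.1%). Their median log2 fold change for APP/PS1/FTnKO against APP/PS1 was 0.03.

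The light chains, the partners of these heavy chains, had similar ranges in the 3 genotypes. Klc1 was 550.3 to 606.7 CPM in APP/PS1/FTnKO mice (median 578.6), 557.7 to 622.1 in APP/PS1 (median 578.5) and 567.3, 578.8, 592.8, 612.4 and 627.8 in WT mice. Its 95% interval for APP/PS1/FTnKO against APP/PS1 was -0.10 to 0.06 on the log2 scale. Klc2 was 215.8 to 241.2 (median 229), 197 to 234.2 (median 224.1) and 220.8, 225.2, 227.6, 233.1 and 246 CPM, with an interval of -0.04 to 0.14. In both genes the groups overlapped. Klc4 had a log2 fold change of -0.04 for APP/PS1/FTnKO against APP/PS1, 0.11 for APP/PS1 against WT and 0.07 for APP/PS1/FTnKO against WT mice. Klc3, the least abundant light chain, was 2.72 to 4.25 CPM in APP/PS1/FTnKO (median 3.19), 2.53 to 4.35 in APP/PS1 (median 3.87) and 2.25, 2.72, 2.87, 3.14 and 3.46 in WT mice. Its log2 fold change of 0.34 for APP/PS1 against WT had the smallest p among the members with a higher level there and did not pass (SE 0.17, adjusted p = 0.394). Of its distinct 100-base stretches 16.2% occur in Ercc2 on the opposite strand, so its counts are uncertain unless strand was used in counting.

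Kif21a (ENSMUSG00000022629; chromosome 15, 90933276 to 91049948, minus strand), a kinesin-4 that restrains microtubule growth, was the other member whose APP/PS1/FTnKO mice all lay above the rest of the 17 mice, while WT mouse 19622, at 277.2 CPM, lay within their range. It was 259.8, 274.5, 280.6, 284.3, 302.8 and 311.3 CPM in APP/PS1/FTnKO mice. In APP/PS1 mice it was 183.7 at the lowest, 217.5 at the median and 242.2 at the highest, and in WT mice 221.1, 222.9, 230.8, 232.1 and 258.4. The gap between the lowest APP/PS1/FTnKO mouse, 19720, and the highest WT mouse, 19718, was small. The log2 fold change was 0.42 (SE 0.07) against APP/PS1 and 0.30 against WT (SE 0.08, adjusted p = 0.0387 by edgeR), in a comparison that shares its APP/PS1/FTnKO mice with the one in which the family was selected. The call against WT was lost when any one of WT mice 18944, 19053, 19101 and 19721 or APP/PS1/FTnKO mice 18943, 19394, 19722, 16974 and 18973 was left out, with adjusted p-values of 0.0543 to 0.0962 and log2 fold changes of 0.27 to 0.31. Against APP/PS1 the call was lost without APP/PS1 mouse 19553 or 19554, at log2 fold changes of 0.42 and 0.43, and also with all 18 mice (0.41), with mice of RIN 8 or more (0.40) and with only the 2 genotypes fitted (0.42). Its relatives in the same group did not pass: Kif21b had log2 fold changes of 0.04 and 0.001 against APP/PS1 and WT, and Kif2a, a microtubule depolymerase of neurons, 0.02 and -0.07.

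Promoter sequence is shown for Kif21a, called in APP/PS1/FTnKO mice, and Kif5c, the heavy chain with the smallest fitted difference, to set the upstream windows of a called and an uncalled member side by side. Each is the 250 bases before the start in RefSeq (GRCm38.p6), 5′ to 3′ on the gene's strand. Capitals mark a GC box (GGGCGG, either strand) or a cAMP response element (TGACGTCA, which reads the same on both strands).
Kif21a (chr15:91049952-91050201, minus strand): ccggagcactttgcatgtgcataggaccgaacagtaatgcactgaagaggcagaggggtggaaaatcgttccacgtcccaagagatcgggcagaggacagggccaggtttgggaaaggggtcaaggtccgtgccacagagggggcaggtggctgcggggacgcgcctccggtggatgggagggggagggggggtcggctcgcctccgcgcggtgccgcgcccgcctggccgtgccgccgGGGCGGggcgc
Kif5c (chr2:49619036-49619285, plus strand): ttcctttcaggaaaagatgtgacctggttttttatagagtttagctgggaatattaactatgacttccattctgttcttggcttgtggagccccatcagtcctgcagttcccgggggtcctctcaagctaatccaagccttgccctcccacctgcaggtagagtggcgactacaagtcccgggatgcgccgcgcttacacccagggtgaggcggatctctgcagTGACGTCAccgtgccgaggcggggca
The Kif21a window held 1 GC box and no cAMP response element, and the Kif5c window the reverse. The search also covered the E-box (CACGTG) and a TATA motif (TATAAA) on both strands, left in lower case: neither window held the E-box, and that of Kif5c held 1 TATA motif. Over all 32851 promoter windows of this length in the table, 32.7% held the GC box, 1.55% the cAMP response element, 6.02% the E-box and 12.4% the TATA motif. Among the 34 members whose windows were searched, 22 held a GC box and 3 (Kif17, Kif5c and Klc1) a cAMP response element, 2 an E-box and 4 a TATA motif. Kif5b was not among them. A match describes these letters only.

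For APP/PS1/FTnKO against APP/PS1 mice over the whole family, 23 of the 37 members had a higher and 14 a lower fitted level, with a median log2 fold change of 0.06 beside -0.002 over all 17414 genes tested. By edgeR 2 members were called higher, Kif5b and Kif21a, where 0.184% of all genes were, and 0 were called lower, where 0.144% were. An unadjusted p under 0.05 was reached by 7 members, beside 11.5% of all genes, and Kif15, which passed the filter mainly through the APP/PS1/FTnKO mice, is among the 7. This comparison selected the family, so nothing is read from these counts. Kif5b and Kif21a were also the members whose groups did not overlap, all higher, beside 0.597% of genes with all APP/PS1/FTnKO mice above and 0.373% with all below the APP/PS1 mice. DESeq2 called 4 members higher, adding Kif5a and Kif17, beside 0.678% of genes. With mouse 19622 included, edgeR called 0 members and 0.0116% of genes higher, with 5 members and 6.66% of all genes at an unadjusted p under 0.05, although the log2 fold change of Kif5b stayed at 0.68.

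Kif17, a kinesin-2 of dendrites and cilia that carries NMDA receptor subunits, was 40.1 to 61.7 CPM in APP/PS1/FTnKO (median 45.9), 27.4 to 41.9 in APP/PS1 (median 37.2) and 35.7, 38.6, 43.9, 46.2 and 46.9 in WT mice. The 2 transgenic groups overlapped between 40.1 and 41.9 CPM, and the log2 fold change was 0.48 (SE 0.13), not called by edgeR except without a filter on low counts. It was 0.21 for APP/PS1/FTnKO against WT (SE 0.14, adjusted p = 0.391) and -0.27 for APP/PS1 against WT (SE 0.14, adjusted p = 0.391). Kif9, a motile cilia kinesin, was 7.55 to 9.80, 6.39 to 7.61 and 5.94 to 9.25 CPM from APP/PS1/FTnKO through APP/PS1 to WT mice, and its log2 fold change against APP/PS1 was 0.32 (SE 0.10). The other 9 transport kinesins lay between -0.08 and 0.10 in that comparison. By role, all 3 heavy chains and all 3 microtubule regulators had a higher fitted level, as did 5 of 6 cilia and Hedgehog, 6 of 9 mitotic and 5 of 10 transport kinesins, while 1 of 4 light chains and 0 of 2 kinesin-11 members did.

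**Figure D3:**
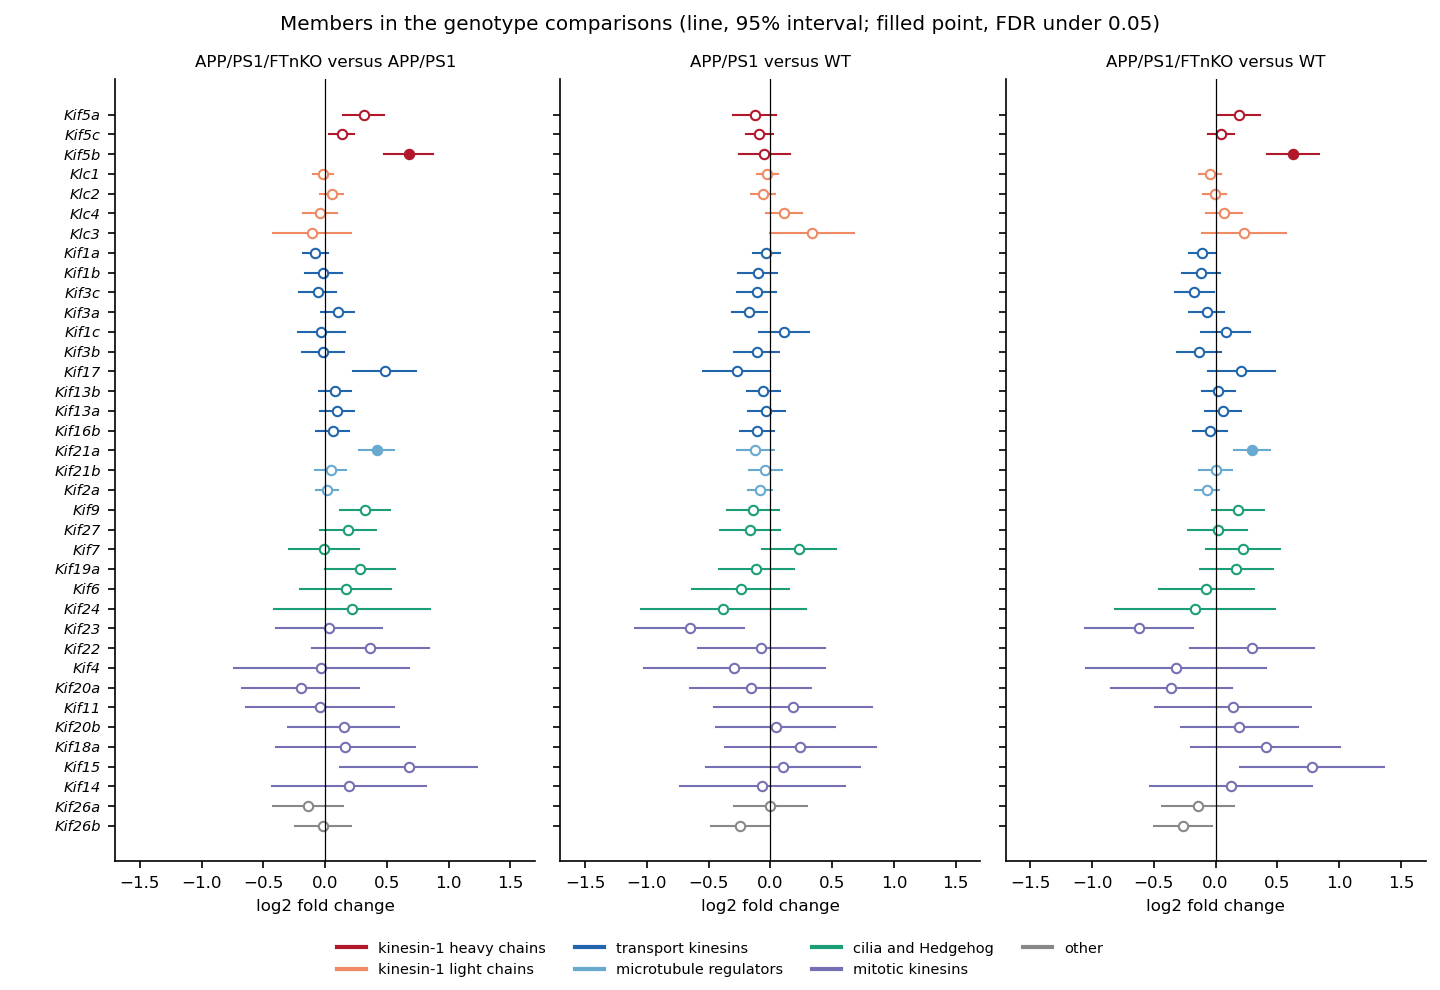
Log2 fold change of the 37 tested members, grouped by role, in the 3 genotype comparisons; lines are 95% intervals and filled points passed the threshold of 0.05 by edgeR after adjustment over all genes. Kif5b and Kif21a are the filled points, in both comparisons of APP/PS1/FTnKO mice, and APP/PS1 against WT has none; Kif5b was selected on the comparison with APP/PS1, and the other uses the same APP/PS1/FTnKO mice, so its points are a description.

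Between APP/PS1 and WT mice no kinesin passed the threshold. Of the 37 members 29 had a lower and 8 a higher fitted level, and the median log2 fold change was -0.09 beside -0.002 over all genes. By edgeR 0 members were called higher, beside 1.32% of genes, and 0 lower, beside 0.178%. At an unadjusted p under 0.05 there were 2 members, beside 14% of all genes. DESeq2 and limma-voom also called 0, DESeq2 beside 2.69% and limma-voom beside 1.09% of genes, and so did edgeR with mouse 19622 included, beside 1.2%. RIN was 8.5 to 8.8 in the WT and 7.7 to 8.7 in the APP/PS1 mice. With RIN as a covariate edgeR again called no member, beside 0.459% of genes called higher and 0.023% lower. No member had groups that did not overlap, against 1.71% of genes with all APP/PS1 mice above and 0.695% with all below the WT mice.

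The members with the smallest p in that comparison were Kif23 and Kif3a among the lower and Klc3 and Kif7 among the higher. Kif23, which acts in the final separation of dividing cells, was 1.59 to 2.14 CPM in APP/PS1 (median 1.87) and 2.07, 2.31, 3.17, 3.20 and 3.94 in WT mice. The groups met only at their edges, where WT mouse 19721 lay within the APP/PS1 range, and the log2 fold change was -0.65 (SE 0.22, adjusted p = 0.194). Kif3a, a motor of heterotrimeric kinesin-2, was 99.5 to 140.3 CPM (median 114.7) and 129.7, 131.7, 135.8, 136.4 and 140.2, with a log2 fold change of -0.17 (SE 0.07, adjusted p = 0.300). Kif7, a ciliary regulator of Hedgehog signalling, was 4.05 to 5.96 (median 4.59) and 3.10, 4.17, 4.39, 4.5 and 4.79 CPM, with 0.23 (SE 0.15, adjusted p = 0.519). The Kif3a and Kif7 groups overlapped, and 12.8% of the 100-base stretches of Kif7 lie in an antisense gene.

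Against WT mice, APP/PS1/FTnKO mice had 2 kinesins called higher, Kif5b and Kif21a, beside 2.22% of genes, and 0 called lower, beside 1.65%. At an unadjusted p under 0.05 there were 6 members, beside 22.1% of all genes. Kif15 is among the 6 but is not read, since it passed the filter mainly through the APP/PS1/FTnKO mice. DESeq2 and limma-voom also called Kif5b and Kif21a and no other member, DESeq2 beside 3.85% and limma-voom beside 2.02% of all genes. With mouse 19622 included edgeR called 0, beside 1.22%. The median log2 fold change of the 37 members was 0.02 beside 0.01 over all genes, with 21 higher and 16 lower. Only Kif5b and Kif21a had groups that did not overlap, both above, where 2.75% of genes were above and 2.85% below. These values use the same APP/PS1/FTnKO mice as the comparison that selected the family.

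The lower members with the smallest p in that comparison were Kif23 and Kif26b. Kif23 was 1.23 to 2.81 CPM in APP/PS1/FTnKO mice (median 1.64), with a log2 fold change of -0.62 (SE 0.22, adjusted p = 0.116). Kif26b, a kinesin-11, was 14.8 to 21.5 CPM (median 18.5) against 18.8, 19.0, 22.2, 23.8 and 24.5 in WT mice, with -0.26 (SE 0.12, adjusted p = 0.210). Both overlapped with the WT mice. Kif15, a spindle kinesin, was 0.563 to 1.44 CPM (median 0.911) in APP/PS1/FTnKO, 0.337 to 1.05 in APP/PS1 and 0.400, 0.488, 0.532, 0.620 and 0.667 in WT mice, so that its values rest on few reads per library. No p-value is printed for Kif15 and its place in the counts of members is not read, since it passed the filter mainly through the APP/PS1/FTnKO mice. The summed level of 10 markers of dividing cells was 9.87 to 18.3 CPM in APP/PS1/FTnKO and 10.5 to 13.7 in WT mice, and their part in Kif15 and Kif23 was not tested.

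**Figure D4:**
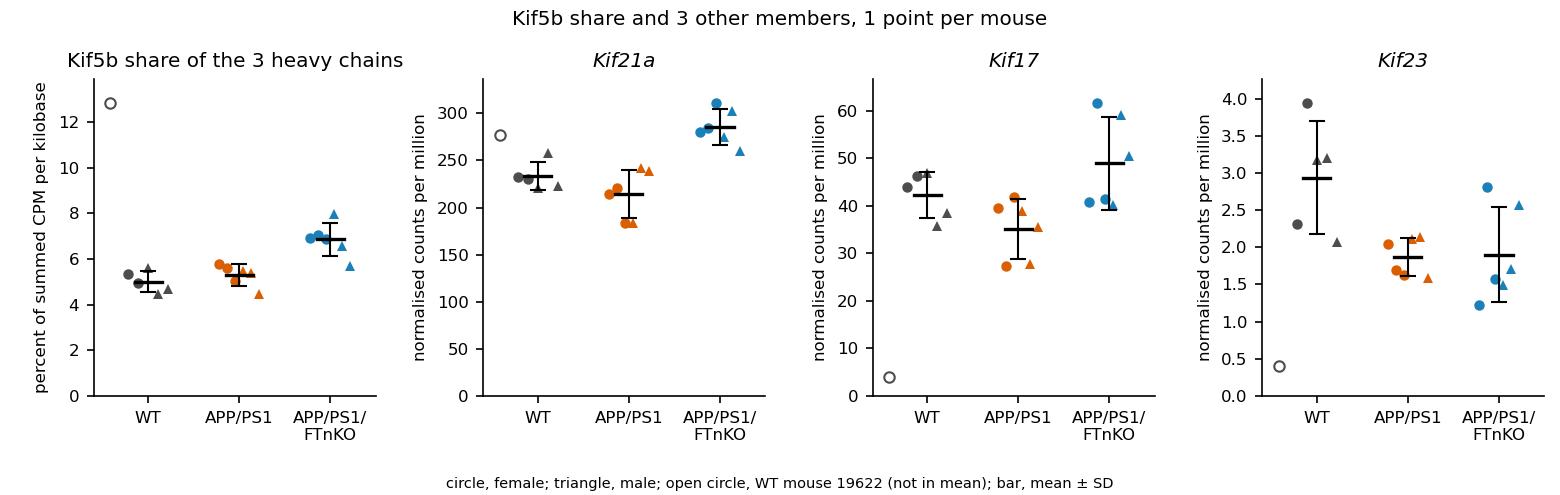
Share of Kif5b in the summed CPM per kilobase of Kif5a, Kif5b and Kif5c (left, percent) and normalised CPM of Kif21a, Kif17 and Kif23 in each mouse by genotype, with the mean and SD of 5 WT, 6 APP/PS1 and 6 APP/PS1/FTnKO mice and mouse 19622 as an open circle. Kif21a lies at 259.8 or more in APP/PS1/FTnKO mice, and the groups of the others overlap.

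Between the sexes no kinesin passed the threshold. By edgeR 0 of 37 members were called between females and males, beside 0.0689% of genes, and DESeq2 and limma-voom also called 0, beside 0.178% and 0.0861% of genes. At an unadjusted p under 0.05 there was 1 member, beside 6.7% of all genes. It was Kif21b, a kinesin-4 of dendrites, with a log2 fold change of -0.13 for females against males (SE 0.06, adjusted p = 0.663). The difference between the sexes in the APP/PS1/FTnKO against APP/PS1 comparison was called for 0 members, where 0% of all genes were called, and 3 members reached an unadjusted p under 0.05, beside 3.32% of all genes. They were Kif13a, Kif24 and Kif15, of which Kif15 passed the filter mainly through the APP/PS1/FTnKO mice and is not read. DESeq2 also called 0 members there, where it called 1 of all 17414 genes.

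Other parts of the transport machinery were compared by lists. None of 23 dynein and dynactin genes, which serve transport toward the cell body, 19 kinesin cargo adaptors, 22 tubulin and microtubule-associated genes and 6 kinesins named outside the pattern was called by edgeR for APP/PS1/FTnKO against APP/PS1 or for APP/PS1 against WT mice. Of all genes 0.184% were called higher and 0.144% lower in the former, and 1.32% and 0.178% in the latter. In the former 2, 3, 3 and 0 of the listed genes had an unadjusted p under 0.05, beside 11.5% of all genes, and in the latter 2, 0, 1 and 0, beside 14%. Their median log2 fold changes for APP/PS1/FTnKO against APP/PS1 were -0.03, -0.02, -0.04 and -0.01. Against WT mice, APP/PS1/FTnKO mice had lower Dctn3, a dynactin subunit (log2 fold change -0.24, adjusted p = 0.0124), Dync1i1, a dynein intermediate chain of neurons (-0.23, adjusted p = 0.0409), Trak1, which links kinesin-1 to mitochondria (-0.23, adjusted p = 0.0207), and Tuba4a, an alpha-tubulin (-0.29, adjusted p = 0.0315), where 1.65% of all genes were called lower. The neuronal marker sum of APP/PS1/FTnKO mice also lay below most WT values, with 1 of 7 neuronal markers, Slc17a7, called lower. All 7 had a lower fitted level, but unevenly. The log2 fold changes were -0.455 for Slc17a7, -0.394 for Camk2a, -0.272 for Syt1 and -0.223 for Gad1. Those of Snap25 (-0.081), Rbfox3 (-0.079) and Gad2 (-0.031) were smaller. The part of the neuronal marker sum in the 4 transport genes was not tested.

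WT mouse 19622 differed from the other 5 WT mice across the transcriptome, with 37.2% of all tested genes above and 36.4% below the range of the 5 mice. Of the 37 kinesins 11 lay above, 16 below and 10 within that range, a share outside it close to that of all genes. Kif17 was 3.93 CPM against 35.7 to 46.9, Kif23 0.398 against 2.07 to 3.94, Kif21b 64.7 against 163.7 to 196.3 and Kif5a 1617 against 3418 to 4140. Kif26b, at 101.4 against 18.8 to 24.5, and Kif13a, a kinesin-3 of endosomes, at 111.3 against 40.0 to 48.8, lay above. Kif5b was 422.2 CPM, 1.52 times the mean of the other WT mice and within the range of the APP/PS1/FTnKO mice, and Kif5c was 912.7, at their mean of 912.5. With less Kif5a and more Kif5b, the share of Kif5b among the heavy chains was 12.8% in this mouse, above every other mouse. With a single library there is no replicate for these values.

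**Figure D5:**
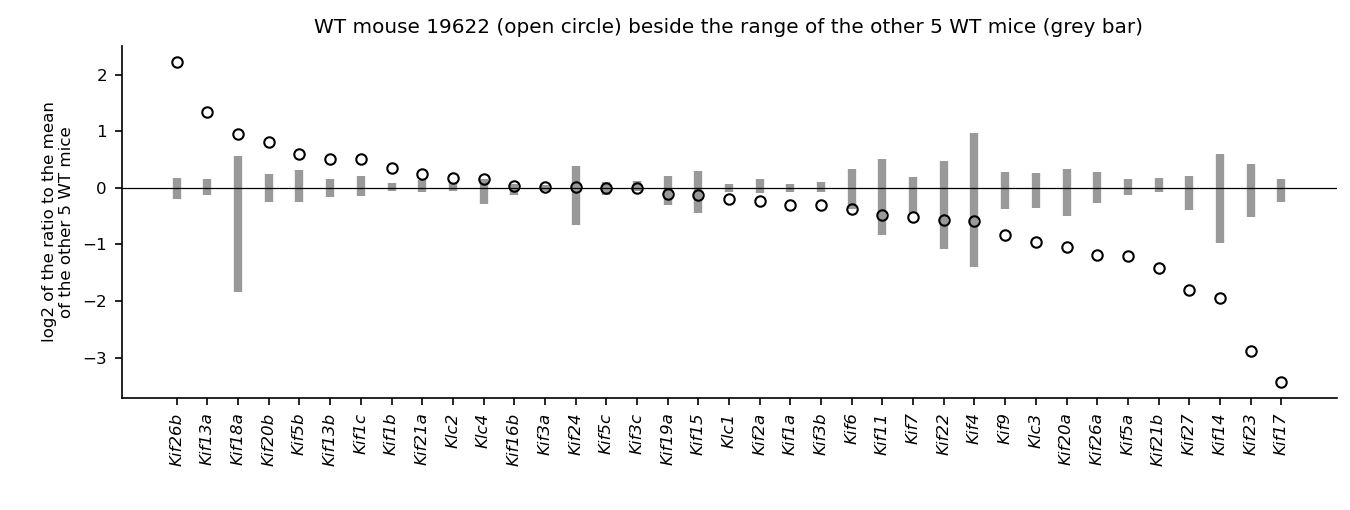
Log2 ratio of each tested member in WT mouse 19622 to the mean of the other 5 WT mice (open circles), with the range of those 5 mice as grey bars. Kif26b and Kif13a lie furthest above and Kif17 and Kif23 furthest below.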

How the data were processed

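Stranded paired-end mRNA libraries of frontal cortex from 18 mice were analysed. According to the methods, reads were trimmed (Trimmomatic 0.33), aligned to GRCm38 (HISAT2 2.1.0) and assigned to genes (featureCounts), and the authors deposited raw, unnormalised counts for each Ensembl gene. How featureCounts treated strand and multi-mapping reads, and with which annotation, was not given in the sources used here. Members were taken by gene name. WT mouse 19622 was kept apart. The study left out a WT sample as an outlier, which its methods do not name.

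The counts of 17 mice were fitted together for the 3 genotypes, adjusting for sex, by edgeR's quasi-likelihood method (edgeR 4.0.16, R 4.3.3). Genes were kept by filterByExpr at a minimum count of 10, which left 17414, libraries were scaled by TMM, and p-values were adjusted by Benjamini-Hochberg over all of them, with a threshold of 0.05. Standard errors were derived from the F statistic. DESeq2 1.42.0 and limma-voom (limma 3.58.1) were alternatives, and the scripts were tested on simulated data. Normalised counts (CPM) are on the TMM scale of the 17 mice. CPM was divided by the union of exons in kilobases (GENCODE M21, GRCm38, matching 99.5% of 55487 genes) where genes were compared. Intervals of 95% use the normal quantile. 0 columns were unused.

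The members, lists and tests were chosen with earlier results of these data known. Named in full were the heavy chains, Klc1, Klc2, members called in any comparison, and the pair with the smallest p in each direction in APP/PS1 and in APP/PS1/FTnKO against WT mice. Kif17, Kif9, Kif21b, Kif13a and Kif24 were named after their values were seen.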

Additional observations from a re-analysis of the deposited data

Results flagged for a closer look

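Single mice stood apart from their group in 3 of the 45 sets of values examined (15 members in 3 genotypes of the 17 mice), where about 1 in 20 is flagged by chance. Kif5b was 533.2 CPM in APP/PS1/FTnKO mouse 16974, and the next was 435.5. Klc2 was 197 CPM in APP/PS1 mouse 19554, and the next was 221.4. Kif21b was 196.3 CPM in WT mouse 19718, and the next was 169.5. In WT mouse 19622, which was kept apart from the fit of the 17 mice, Kif13a was 2.55 and Kif26b 4.68 times the mean of the other 5 WT mice.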

How the results depend on the processing

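For APP/PS1/FTnKO against APP/PS1 mice the 2 members called higher became 0 with all 18 mice (0.0116% of all genes), 4 with DESeq2 (0.678%), 4 without a filter (0.169%), 1 with mice of RIN 8 or more (0.0459%) and 1 with only the 2 genotypes compared (0.0178%), where 0.184% were called by the settings of the report. The genes added were Kif17 and Kif5a, and the gene lost at 1 was Kif21a. With RIN as a covariate there were 3, with Kif5a added (0.614%). The counts were 1 to 2 with each mouse left out (0.0347% to 0.248%). Against WT mice they became 0 with all 18 mice (1.22% of all genes) and were 1 to 2 with each mouse left out (0.786% to 3.44%), where 2.22% were called by the settings of the report. Other alternatives left the counts within 1.5 times, and the counts of 0 stayed at 0. For APP/PS1 against WT the log2 fold change of Kif5b was -0.099 to 0.047 with each mouse left out, above 0 without WT mouse 19101, -0.16 with all 18 mice, -0.12 with mice of RIN 8 or more and -0.25 with RIN as a covariate, and that of Kif5a was 0.025 with all 18 mice, so that each turned in sign in 1 setting. Without division by gene length the share of Kif5b was 5.65% in WT, 5.98% in APP/PS1 and 7.72% in APP/PS1/FTnKO mice. Other uncalled values against WT also moved by more than 1.5 times over the alternatives, without a change of sign or call. For APP/PS1 these were Kif3a from -0.22 to -0.06, Kif7 from 0.06 to 0.31, Klc3 from 0.13 to 0.47, Kif17 from -0.32 to -0.01, Kif5c from -0.12 to -0.06, Kif21a from -0.17 to -0.04, Kif23 from -0.76 to -0.415 and Kif26b from -0.83 to -0.06. For APP/PS1/FTnKO they were Kif26b from -0.86 to -0.15, Kif23 from -0.78 to -0.38, Kif5a from 0.12 to 0.33, Kif5c from 0.02 to 0.07 and Kif17 from 0.13 to 0.46. The -0.86 and -0.83 of Kif26b and the 0.47 of Klc3 were the values with mouse 19622 included. The cause of these shifts was not tested. No paired analysis was possible because the labels give no replicate numbers shared between genotypes. Mitotic kinesins, at a few CPM or less, are limited by depth.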
